A study of Mus musculus with 6 samples.

Results

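The extracellular matrix of the lung is cut by secreted and membrane-bound metalloproteinases and guarded by their tissue inhibitors, and the 46 mouse genes of these families were followed in 6 lung libraries. The 46 are all symbols in the gene matrix that start with Mmp and a digit (23 matrix metalloproteinases), that are Adamts followed by a number alone (19 ADAMTS proteases), or that are Timp1 to Timp4 (4 tissue inhibitors), out of 56980 genes. Symbols alone chose them, and no measured value did. The DPP3_KO group (n = 3) was lung tissue from NSG mice that had received MDA-MB-231 cells lacking DPP3 through a knockout, and the Ctrl group (n = 3) was lung tissue from NSG mice that had received MDA-MB-231 cells labelled as control. In both groups the human cells had been placed in the fourth mammary fat pad 5 weeks before the lungs were taken. MDA-MB-231 is an established line from a human breast cancer of the triple-negative kind, and DPP3 encodes dipeptidyl peptidase 3. The NSG strain has no mature T or B lymphocytes or natural killer cells. The deleted gene is that of the human tumour cells, so mouse Dpp3 (21.9 ± 0.969 scaled TPM in DPP3_KO and 22.4 ± 2.47 in Ctrl, SD, n = 3 each) is no check of the labels. The age and sex of the mice, the number of knockout clones, and whether each library came from a separate mouse are not stated in the labels. The p-values therefore reflect spread among these libraries, which may be technical. The treatment label is worded the same for all 6, and the titles alone set the groups apart. The series asks how DPP3 that breast cancer cells secrete in exosomes acts on lung metastasis.

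Matrix metalloproteinases (MMPs) are zinc enzymes made as inactive precursors, and together they can cut nearly every protein of the matrix, with collagenases opening fibrillar collagen and gelatinases cutting denatured collagen and basement membrane. ADAMTS proteases are secreted relatives that carry thrombospondin repeats, and their best known substrates are the large proteoglycans, procollagens and von Willebrand factor. The TIMPs bind the active site of MMPs, and TIMP3, which is held in the matrix, also blocks several ADAM and ADAMTS enzymes. In lung, neutrophils store MMP8, MMP9 and MMP25, alveolar macrophages make MMP12, the macrophage elastase studied in emphysema, and fibroblasts make MMP2.

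The values were deposited as TPM, transcripts per 1000000, in which every library has about the same sum and the sequencing depth is unknown. As deposited, the median change of the 15650 tested genes (mean TPM 1 or more) was -0.60 on the log2 scale in DPP3_KO against Ctrl, and the airway gene Scgb1a1 held 217097 to 287457 TPM in DPP3_KO against 71578 to 101282 TPM in Ctrl libraries. Levels and changes below were therefore scaled by median of ratios, which divides each library by 1 factor (0.700 to 0.909 in DPP3_KO, 1.19 to 1.36 in Ctrl) and sets each gene against the typical gene. Each value is called scaled TPM, and the median log2 change of all tested genes became -0.03. Changes are differences in log2(scaled TPM + 1), a scale that makes those of low genes look smaller, and a gene is called when its limma p, adjusted by Benjamini-Hochberg over all tested genes, is under 0.05. Over all tested genes, 1.90% were called higher in DPP3_KO and 0.882% lower, and 14.6% were higher and 15.4% lower without overlap of the groups. In DPP3_KO, 6 of 9 tested airway genes and 5 of 8 heart muscle genes were called higher, and 0 of 10 smooth muscle and pericyte genes. The summed level of 10 airway genes was 252870 to 412710 scaled TPM in DPP3_KO against 62658 to 78162 in Ctrl. Most of this sum was Scgb1a1 alone, at 238960 to 398480 scaled TPM in DPP3_KO and 60188 to 74702 in Ctrl. Scgb1a1 was not called (limma adjusted p = 0.0540). The sum of 8 heart muscle genes was 2346 to 2889 in DPP3_KO against 446 to 879 in Ctrl, and that of the smooth muscle and pericyte genes 668 to 1244 in DPP3_KO against 204 to 590 in Ctrl. Of 10 alveolar epithelial genes, 2 were called lower (Clic5 and Pdpn), 5 were lower without overlap and 9 had changes below 0 (median -0.87). The exception was the most abundant of them, Sftpc, at 15981 to 30769 scaled TPM in DPP3_KO and 17183 to 30881 in Ctrl. Of 10 capillary endothelial genes, 2 were called lower (Calcrl and Cdh5), 7 were lower without overlap and 9 had changes below 0 (median -1.11), and their summed level was 721 to 1643 scaled TPM in DPP3_KO against 2125 to 2564 in Ctrl. The part of these tissues in the levels of members made by epithelium or endothelium was not tested. In bulk tissue, fewer cells of a type and less RNA per cell cannot be told apart.

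Of the 46 genes, 26 reached the limit of 1 TPM on average and were tested. These were 12 of 23 MMPs, 10 of 19 ADAMTS proteases and 4 of 4 TIMPs. Another 16 lay between 0 and 1 TPM on average, and 4 (Mmp1a, Mmp1b, Mmp20 and Adamts16) were listed at 0 in all 6 libraries. Just inside the limit were Adamts17 and Adamts14 at means of 1.01 and 1.05 TPM, and just outside it were Adamts4 and Mmp13 at 0.943 and 0.743 TPM. The most abundant were Timp3, Timp2 and Mmp8 at means of 260.1, 175 and 159.9 TPM.

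**Figure D1:**
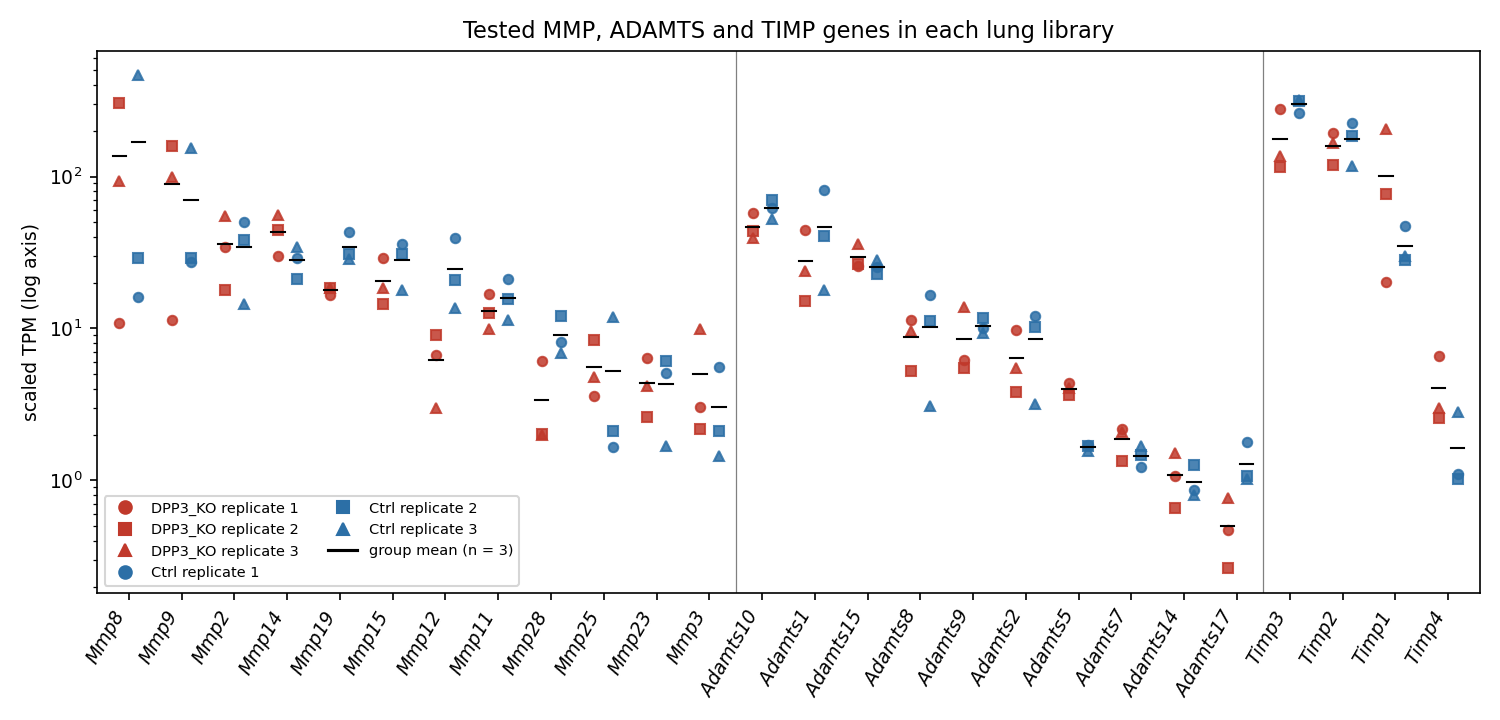
Scaled TPM (log axis) of the 26 tested genes in each library, with DPP3_KO in red on the left and Ctrl in blue on the right of each pair, marker shapes for replicates and black bars for group means (n = 3). Mmp8 spanned 10.9 to 302.5 scaled TPM in DPP3_KO and 16.1 to 463 in Ctrl, whereas the 3 DPP3_KO values of Adamts5 lay close together above the 3 Ctrl values.

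A run of 10 MMP genes sits side by side on chromosome 9 with no other protein-coding gene between them in the RefSeq annotation, in the order Mmp13, Mmp12, Mmp1b, Mmp3, Mmp1a, Mmp10, Mmp8, Mmp27, Mmp20 and Mmp7. These neighbours had very different mean levels in lung: Mmp8 averaged 159.9 TPM, Mmp12 18.3 and Mmp3 3.83, and the other 7 were each under 1 TPM. The order did not hold in every library. Mmp8 ranged from 8.84 TPM in DPP3_KO replicate 1 to 550 TPM in Ctrl replicate 3. In Ctrl replicate 1, Mmp12 (49.4 TPM) exceeded Mmp8 (20.3 TPM). RefSeq promoters (build GRCm38.p6, from 250 bases before to 50 after the start of transcription) were at hand for 32 of the 46 genes, as 35 windows. Adamts5, Mmp9 and Mmp19 were among the genes without one. The binding letters of AP-1, TGANTCA on either strand, occurred in the promoters of 8 of the 10 genes of the cluster and of 0 of the 22 other members with a promoter. Counted by window, they were in 8 of the 35, against 7.81% of 32851 promoters of all genes. Mmp8 and Mmp27 were the 2 cluster genes without them. The letters GAGGAAGT on either strand, a core of sites for the myeloid factor PU.1, occurred in 3 of the 35 windows, in Mmp12, Mmp7 and Mmp8, against 3.20% of all promoters. The motifs were searched separately, and a match of letters is not a binding site. The windows of the 3 tested genes of the cluster follow, shown because these neighbours differ in mean level and in the letters they hold. Capitals mark the AP-1 letters in Mmp3 (46 bases before the start) and in the second Mmp12 window (44 bases before its start), and the PU.1 letters, here on the opposite strand, in the first Mmp12 window (88 bases before the start) and in Mmp8 (221 bases before the start).
Mmp12, first start, chr9:7344147-7344446, plus strand: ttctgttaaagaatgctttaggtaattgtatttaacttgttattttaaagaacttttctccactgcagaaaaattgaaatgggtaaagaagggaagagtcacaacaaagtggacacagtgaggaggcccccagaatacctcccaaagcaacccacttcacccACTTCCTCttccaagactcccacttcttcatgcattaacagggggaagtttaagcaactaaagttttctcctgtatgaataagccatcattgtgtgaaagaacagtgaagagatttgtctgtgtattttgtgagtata
Mmp12, second start, chr9:7347124-7347423, plus strand: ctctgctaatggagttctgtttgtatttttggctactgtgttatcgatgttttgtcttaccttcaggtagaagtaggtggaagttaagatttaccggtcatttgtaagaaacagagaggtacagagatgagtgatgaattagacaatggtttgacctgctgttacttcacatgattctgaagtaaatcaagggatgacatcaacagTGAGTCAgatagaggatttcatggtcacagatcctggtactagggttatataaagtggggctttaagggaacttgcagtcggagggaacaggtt
Mmp3, chr9:7445572-7445871, plus strand: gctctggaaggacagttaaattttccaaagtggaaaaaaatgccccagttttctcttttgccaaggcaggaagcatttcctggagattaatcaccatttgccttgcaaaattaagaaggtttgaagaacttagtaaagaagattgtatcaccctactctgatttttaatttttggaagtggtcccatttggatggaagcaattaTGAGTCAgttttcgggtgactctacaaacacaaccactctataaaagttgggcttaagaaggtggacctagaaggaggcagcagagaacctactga
Mmp8, chr9:7558179-7558478, plus strand: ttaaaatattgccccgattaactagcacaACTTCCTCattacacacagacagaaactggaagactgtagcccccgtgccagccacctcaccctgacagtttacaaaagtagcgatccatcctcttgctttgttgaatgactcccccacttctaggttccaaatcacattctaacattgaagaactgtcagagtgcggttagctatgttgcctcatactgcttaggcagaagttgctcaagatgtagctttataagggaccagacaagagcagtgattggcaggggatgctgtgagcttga

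Between the groups, 1 of the 26 tested genes rose in DPP3_KO lungs, Adamts5, and 0 fell (limma, adjusted over all genes). Over all 15650 genes, 1.90% were called higher and 0.882% lower, so 1 of 26 is near the background. At an unadjusted p under 0.05 there were 6 of the 26, and 23.1% of all genes. Of the 26, 13 had a log2 change above 0 and 13 below, with a median of 0.02 against -0.03 over all genes. In 1 tested member all DPP3_KO libraries lay above all Ctrl libraries and in 4 all lay below, where 14.6% and 15.4% of all genes did so. On the TPM as deposited 0 were called higher and 7 lower (Timp3, Mmp28, Adamts10, Mmp19, Adamts9, Mmp12 and Adamts17), with a median of -0.58, where 1.38% and 34.0% of all genes were called, and none of the 7 was called after scaling. With sample quality weights, 3 of them (Mmp12, Mmp19 and Mmp28) were called lower after scaling as well, where 4.02% of all genes were. A gene that was not called is not shown to be unchanged.

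**Figure D2:**
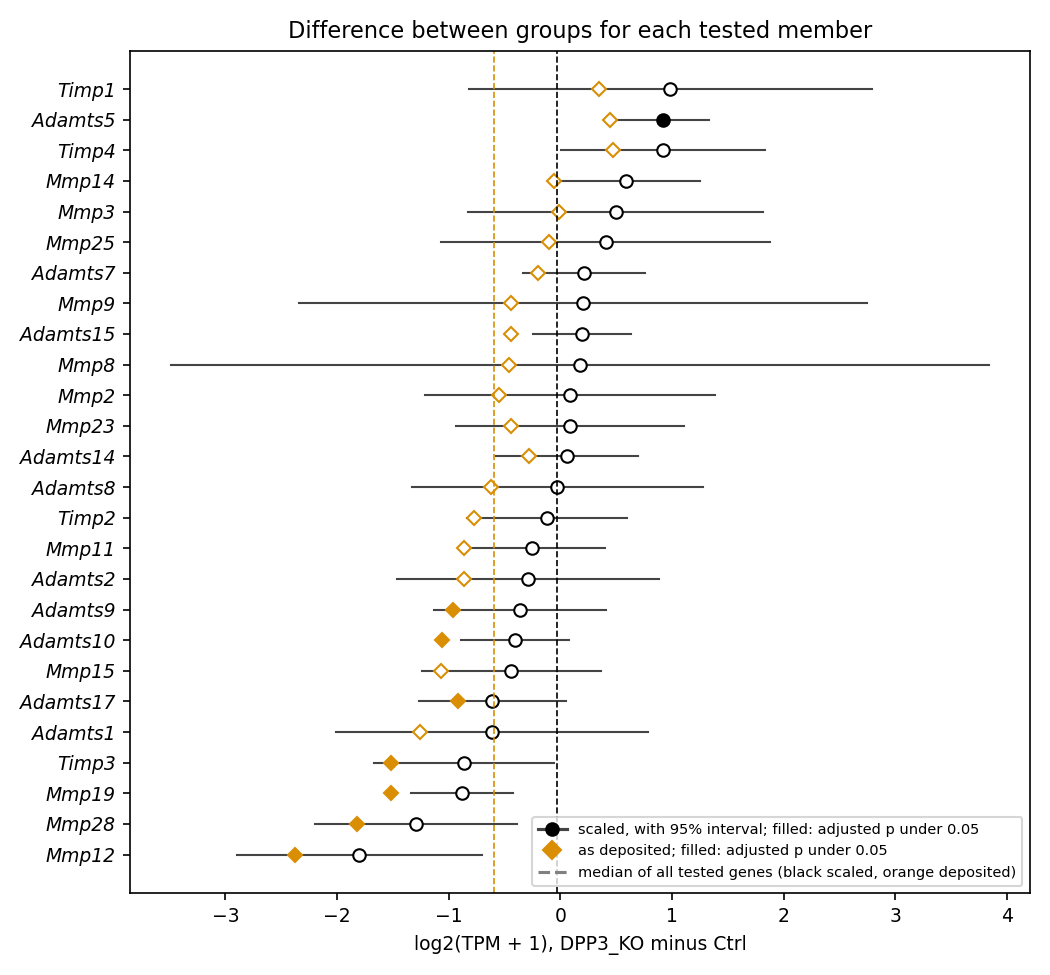
Difference between DPP3_KO and Ctrl in log2(TPM + 1) for each tested gene. Circles with 95% intervals are scaled values, orange diamonds are values as deposited, filled symbols were called, and dashed lines mark the medians of all tested genes at -0.03 (scaled) and -0.60 (deposited). Adamts5 is the filled circle at 0.92, and Mmp12 lies lowest at -1.80 scaled and -2.38 as deposited.

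Adamts5, an aggrecanase that also cuts versican, was low in lung and rose in DPP3_KO. Its levels were 4.38, 3.67 and 4.03 scaled TPM in DPP3_KO libraries, against 1.71, 1.68 and 1.57 in Ctrl libraries. The groups did not overlap and each was tight, with means of 4.03 ± 0.357 and 1.66 ± 0.0732 (SD, n = 3 each), a ratio of 2.43. The log2 change was 0.92 ± 0.18 (SE, limma adjusted p = 0.0493), or 1.21 (adjusted p = 0.0436) after a correction for gene length within each library. As deposited the 3 DPP3_KO values were also the higher ones, 3.23 ± 0.370 against 2.10 ± 0.210 TPM, but the gene was not called (log2 change 0.45, adjusted p = 0.130). Leaving out any 1 of the 6 libraries ended the call, with adjusted p from 0.0923 to 0.182, while the log2 change stayed at 0.88 to 0.98. The summed smooth muscle and pericyte, airway and heart muscle lists were likewise higher in all 3 DPP3_KO libraries than in all 3 Ctrl libraries. Higher without overlap were 4 of 10, 9 of 9 and 8 of 8 of their tested genes, where 14.6% of all genes were. Of the smooth muscle and pericyte genes, 7 of 10 had changes above 0 and 0 were called. In the fibroblast list 8 of 10 genes had changes below 0 and 0 were called. The part of these lists in the level of Adamts5 was not tested.

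Mmp12, the macrophage elastase gene, was the member with the lowest log2 change in DPP3_KO. It stood at 6.67, 9.01 and 3.00 scaled TPM in DPP3_KO libraries, against 39.3, 21.0 and 13.7 in Ctrl libraries. All DPP3_KO values lay under all Ctrl values, and the DPP3_KO mean was 0.253 of the Ctrl mean (6.23 ± 3.03 against 24.7 ± 13.2, SD, n = 3 each). The log2 change was -1.80 ± 0.46 (SE, limma adjusted p = 0.0892), and as deposited -2.38 (adjusted p = 0.0187). A list of 10 genes of alveolar macrophages, the lung cells best known for Mmp12, was set beside it. Of these, 10 of 10 had changes below 0, 7 were lower without overlap and 5 were called lower. Over all tested genes 15.4% were lower without overlap and 0.882% were called lower. Car4, among the 7, is in the capillary endothelial list as well. Siglecf, a lectin that defines these cells, stood at 0.557, 0.969 and 0.357 scaled TPM in DPP3_KO against 11.5, 11.4 and 5.55 in Ctrl, a log2 change of -2.64 (limma adjusted p = 0.0149). The summed list spanned 315 to 1926 scaled TPM in DPP3_KO and 973 to 2444 in Ctrl and overlapped. Its most abundant gene, Chil3, stood at 167, 1545 and 402.5 scaled TPM in DPP3_KO libraries, against 761, 557 and 1974 in Ctrl libraries. Marco stood at 2.21, 269 and 176 scaled TPM in DPP3_KO libraries, against 43.8, 31.4 and 216 in Ctrl libraries. Its mean was higher in DPP3_KO (149 against 96.9), though its log2 change was -0.34. By library, Mmp12 was highest in Ctrl replicate 1, and the summed list in Ctrl replicate 3 and then DPP3_KO replicate 2. Chil3 and Marco were also highest in these 2 libraries, which were the highest in the neutrophil list described below. Chil3 made up most of the sum there, with 1974 of 2444 scaled TPM in Ctrl replicate 3 and 1545 of 1926 in DPP3_KO replicate 2. Chil3, Marco and Fabp1 were the genes of the list whose groups overlapped. No marker of the list was at 0 in all libraries, though Fabp1 was listed at 0 in DPP3_KO replicates 2 and 3. The part of alveolar macrophages in the level of Mmp12 was not tested.

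Mmp19, a broad-specificity MMP made by macrophages and stromal cells, was also lower without overlap. Its levels were 16.6, 18.6 and 18.4 scaled TPM in DPP3_KO libraries, against 43.1, 31.1 and 28.5 in Ctrl libraries. The DPP3_KO values were nearly equal, and the log2 change was -0.88 ± 0.19 (SE, limma adjusted p = 0.0649). Mmp28, or epilysin, an MMP of epithelium and macrophages, had 6.10, 2.03 and 2.00 scaled TPM in DPP3_KO libraries, against 8.16, 12.0 and 6.94 in Ctrl libraries. Its log2 change was -1.29 ± 0.38 (SE, limma adjusted p = 0.118), and DPP3_KO replicate 1 lay nearest to Ctrl. Without that replicate Mmp28 was called lower at -1.72 (limma adjusted p = 0.0408), where 1.10% of all genes were called lower. In the older GENCODE annotation at hand, Mmp19 shares 789 of 3533 exon bases with Tmem198b and Mmp28 shares 466 of 3874 with 1700020L24Rik, both on the opposite strand, and since the strand setting of the counting is not given, such reads cannot be told apart.

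**Figure D3:**
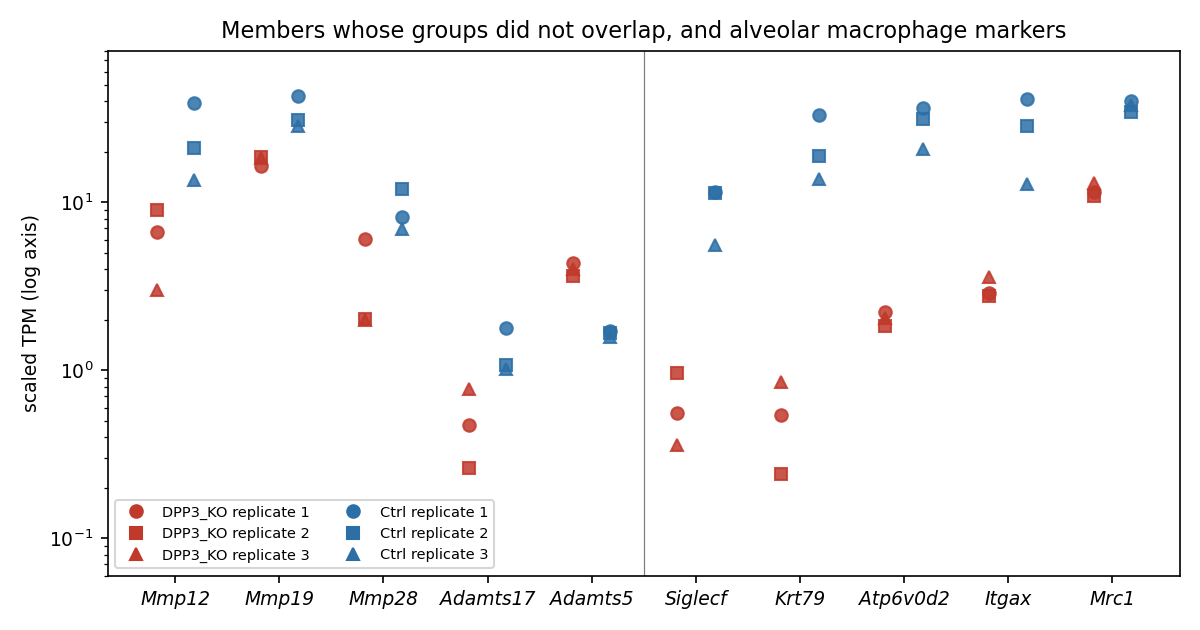
Scaled TPM (log axis) of the 5 tested members whose groups did not overlap, left of the line, and of 5 alveolar macrophage markers, right of it, with DPP3_KO in red and Ctrl in blue. Mmp12, Mmp19, Mmp28 and Adamts17 were lower in all 3 DPP3_KO libraries, Adamts5 was higher, and Siglecf lay at 0.357 to 0.969 in DPP3_KO against 5.55 to 11.5 in Ctrl.

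The neutrophil MMPs varied far more within the groups than between them. Mmp8, neutrophil collagenase, stood at 10.9, 302.5 and 94.1 scaled TPM in DPP3_KO libraries, against 16.1, 29.1 and 463 in Ctrl libraries. The highest library exceeded the lowest by 27.7-fold within DPP3_KO and by 28.7-fold within Ctrl. Mmp9, the larger gelatinase, stood at 11.4, 158.7 and 99.7 scaled TPM in DPP3_KO libraries, against 27.5, 28.9 and 153 in Ctrl libraries. The groups overlapped in both genes, and the log2 changes of 0.18 (95% interval -3.49 to 3.84) and 0.20 (-2.34 to 2.74) leave large differences possible in either direction (limma adjusted p = 0.960 and 0.933). Mmp25, a membrane-anchored MMP of neutrophils, stood at 3.59, 8.45 and 4.76 scaled TPM in DPP3_KO libraries, against 1.66, 2.12 and 11.9 in Ctrl libraries. DPP3_KO replicate 2 and Ctrl replicate 3 were the 2 highest libraries for these 3 of the 26 tested genes and no other.

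The same 2 libraries were the highest in neutrophil markers. The summed level of 10 neutrophil genes, led by S100a9 and S100a8, was 2082, 38394 and 22219 scaled TPM in DPP3_KO libraries, against 3228, 5300 and 44478 in Ctrl libraries. The 6 libraries ranked in the same order by this sum and by Mmp8, and 0 of the 10 genes was called between the groups. Mmp8 and Mmp9 together made up 12.6%, 77.2% and 51.4% of the TPM of all MMPs in DPP3_KO libraries, against 15.3%, 24.1% and 81.0% in Ctrl libraries. Without these 2, the MMPs summed to 155, 136 and 183 scaled TPM in DPP3_KO, against 241, 182.5 and 144 in Ctrl, with overlap. The labels give no reason why these libraries differ, and whether neutrophils account for the MMP levels was not tested.

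Another 8 members were lowest in the same pair of libraries: Timp2, Adamts1, Mmp2, Mmp15, Adamts8, Adamts2, Mmp23 and Adamts14. The share of all tested genes that were highest or lowest in this pair was not counted, so neither pattern is shown to be particular to these members. Mmp2, the gelatinase of fibroblasts, stood at 34.2, 17.9 and 55.2 scaled TPM in DPP3_KO libraries, against 50.2, 38.3 and 14.5 in Ctrl libraries. Its groups overlapped widely (log2 change 0.09, 95% interval -1.21 to 1.39). Adamts2, which trims the amino end of procollagens, stood at 9.77, 3.82 and 5.50 scaled TPM in DPP3_KO libraries, against 12.2, 10.2 and 3.18 in Ctrl libraries. The list of 10 fibroblast genes summed to 856, 556 and 791 scaled TPM in DPP3_KO and to 1048, 977 and 442 in Ctrl, so it too was lowest in DPP3_KO replicate 2 and Ctrl replicate 3, and 0 of its genes was called. Adamts8, an antiangiogenic ADAMTS, followed with 11.4, 5.25 and 9.63 scaled TPM in DPP3_KO against 16.5, 11.2 and 3.11 in Ctrl, and the part of fibroblasts in these levels was not tested.

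**Figure D4:**
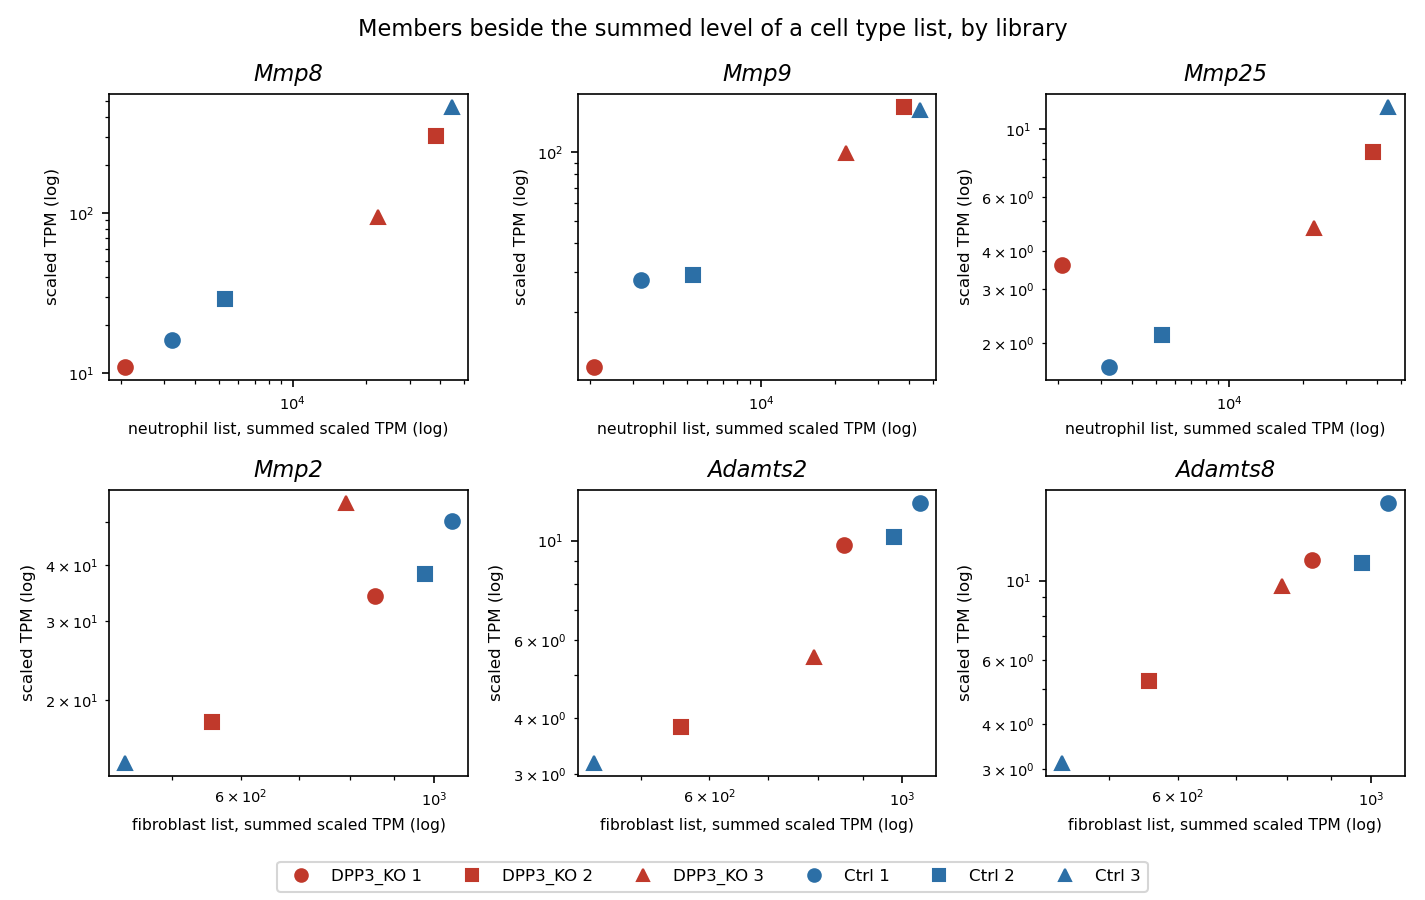
Scaled TPM (log axis) of 6 members plotted against the summed scaled TPM (log axis) of 10 neutrophil genes (top) or 10 fibroblast genes (bottom), with 1 point per library, DPP3_KO in red and Ctrl in blue. DPP3_KO replicate 2 and Ctrl replicate 3 sit at the upper right for Mmp8, Mmp9 and Mmp25, and at the lower left for Mmp2, Adamts2 and Adamts8.

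The remaining tested MMPs were not called. Mmp14, the membrane-type MMP that activates pro-MMP2, averaged 43.3 ± 12.96 scaled TPM in DPP3_KO and 28.1 ± 6.51 in Ctrl (SD, n = 3 each), with a log2 change of 0.59 (limma adjusted p = 0.262). It was almost level as deposited, at -0.05. Mmp15, a second membrane-type MMP, averaged 20.7 ± 7.51 and 28.3 ± 9.30 scaled TPM in DPP3_KO and Ctrl, and Mmp11, stromelysin 3 of stromal cells, 13.1 ± 3.45 and 16.0 ± 4.90. Mmp3, stromelysin 1, stood at 3.03, 2.17 and 9.96 scaled TPM in DPP3_KO libraries against 5.56, 2.12 and 1.44 in Ctrl libraries, with DPP3_KO replicate 3 apart. Mmp23 averaged 4.40 and 4.28 scaled TPM. The untested MMPs included the collagenase Mmp13 (0.06 to 1.72 TPM over the libraries), Mmp27, Mmp17, Mmp16, Mmp24, Mmp7, Mmp10 and Mmp21.

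Among the ADAMTS proteases, Adamts10, Adamts1 and Adamts15 were the most abundant. Adamts10, which acts in fibrillin microfibrils, stood at 57.1, 43.5 and 39.1 scaled TPM in DPP3_KO libraries, against 62.3, 70.6 and 52.6 in Ctrl libraries. The groups met at DPP3_KO replicate 1 and Ctrl replicate 3, and the log2 change was -0.41 ± 0.20 (SE, limma adjusted p = 0.282), against a call at -1.06 as deposited (adjusted p = 0.0231). Adamts1, an aggrecanase induced in endothelium, stood at 44.4, 15.1 and 23.8 scaled TPM in DPP3_KO libraries, against 81.5, 40.6 and 18.02 in Ctrl libraries. Adamts9, a widely expressed proteoglycanase, stood at 6.20, 5.46 and 13.9 scaled TPM in DPP3_KO libraries, against 10.1, 11.7 and 9.38 in Ctrl libraries, and its call as deposited (log2 change -0.96, limma adjusted p = 0.0377) became -0.36 (adjusted p = 0.538). Adamts17, linked to fibrillin like Adamts10, was near the limit of testing at 0.470, 0.264 and 0.772 scaled TPM in DPP3_KO libraries, against 1.78, 1.08 and 1.02 in Ctrl libraries. Its groups did not overlap, and the log2 change was -0.61 (limma adjusted p = 0.248). Adamts15, a proteoglycanase, was the steadiest of the 3 abundant genes, at 29.4 ± 5.70 and 25.4 ± 2.63 scaled TPM in DPP3_KO and Ctrl (SD, n = 3 each). Adamts7, which cuts cartilage oligomeric matrix protein, and the procollagen protease Adamts14 were at 1.87 and 1.08 scaled TPM in DPP3_KO and at 1.46 and 0.976 in Ctrl, with overlap. Adamts13, the von Willebrand factor protease, which liver makes, lay at 0.04 to 0.65 TPM and was not tested. Of the other untested ADAMTS genes, Adamts20, a proteoglycanase, stood at 1.32, 1.05 and 0.572 scaled TPM in DPP3_KO libraries, against 0.183, 0.524 and 0.353 in Ctrl libraries, without overlap after scaling but with overlap as deposited. Adamts4, an aggrecanase, averaged 0.894 scaled TPM in DPP3_KO and 0.906 in Ctrl. Adamts3, Adamts6, Adamts12, Adamts19 and Adamts18 lay at means of 0.0483 to 0.672 TPM.

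The TIMPs summed to more than the MMPs in all libraries except DPP3_KO replicate 2 and Ctrl replicate 3, and their make-up differed between libraries. Timp3 stood at 278, 115 and 136 scaled TPM in DPP3_KO libraries, against 264, 316 and 317 in Ctrl libraries. DPP3_KO replicates 2 and 3 lay under all Ctrl libraries while DPP3_KO replicate 1 lay among them, and the log2 change was -0.86 ± 0.34 (SE, limma adjusted p = 0.194). Without DPP3_KO replicate 1 it was called lower at -1.24 (adjusted p = 0.0458), and as deposited at -1.52 (adjusted p = 0.0198). Timp1, the inducible inhibitor, stood at 20.2, 76.5 and 206 scaled TPM in DPP3_KO libraries, against 46.9, 28.4 and 30.0 in Ctrl libraries. The Ctrl values differed by 1.65-fold and the DPP3_KO values by 10.2-fold, and the log2 change of 0.99 had a 95% interval of -0.82 to 2.79 (limma adjusted p = 0.478). Timp1 made up 4.06%, 24.4% and 40.4% of the TPM of the 4 inhibitors in DPP3_KO libraries, against 8.75%, 5.34% and 6.45% in Ctrl libraries.

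Timp2, which also takes part in the activation of pro-MMP2, stood at 192, 119 and 165 scaled TPM in DPP3_KO libraries, against 224, 186 and 116 in Ctrl libraries, with a log2 change of -0.12 (limma adjusted p = 0.845). Timp4, known for its expression in heart and fat, stood at 6.62, 2.58 and 3.00 scaled TPM in DPP3_KO libraries, against 1.11, 1.02 and 2.80 in Ctrl libraries. Ctrl replicate 3 lay above DPP3_KO replicate 2, and the log2 change was 0.92 ± 0.39 (SE, adjusted p = 0.215). DPP3_KO replicate 1, the highest in Timp4, was also the highest in the list of 8 adipose genes, at 228 scaled TPM against 77.4 to 157 in the other 5 libraries, and all 8 heart muscle genes were higher in DPP3_KO without overlap, 5 of them called. By library, the summed heart muscle list was highest in DPP3_KO replicate 3 (2889 scaled TPM). It was lowest in Ctrl replicate 3 (446), the Ctrl library with the most Timp4. The part of heart and fat in Timp4 was not tested. Timp1, Timp3 and Timp4 overlap synapsin genes of the opposite strand: Timp3 shares 1733 of 8144 exon bases with Syn3 and Timp4 90 of 5894 with Syn2 in the older annotation. Syn3 was at 2.39, 3.28 and 26.6 scaled TPM in DPP3_KO and 0.629, 0.870 and 0.799 in Ctrl, and whether the 2 genes share reads was not tested. The sum of all MMPs over the sum of all TIMPs was 0.357, 1.91 and 0.739 in DPP3_KO libraries, against 0.531, 0.453 and 1.63 in Ctrl libraries.

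**Figure D5:**
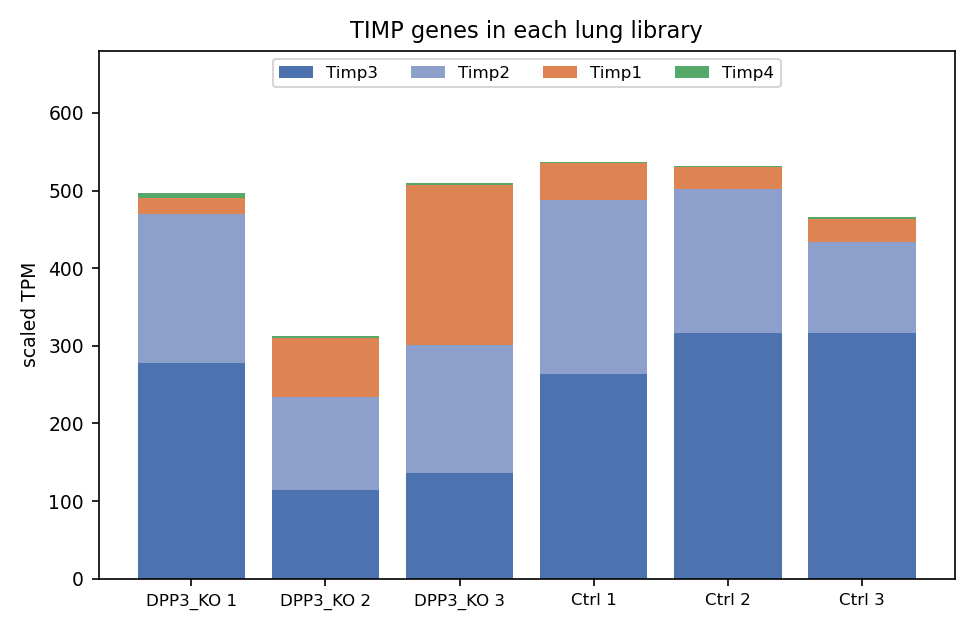
Scaled TPM of the 4 TIMP genes stacked for each library, with the DPP3_KO libraries left of the Ctrl libraries. The bars reach 313 to 510 in DPP3_KO and 466 to 536 in Ctrl, and Timp1 (orange) is widest in DPP3_KO replicate 3 at 206.

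Genes that activate, hold or clear these proteases, or are cut by them, gave no call after scaling in any of 5 lists. In plasminogen activation, 0 of 8 tested genes were called and 4 were lower as deposited, where 34.0% of all genes were. Plau, the urokinase gene, averaged 1.94 ± 0.319 scaled TPM in DPP3_KO and 3.72 ± 1.47 in Ctrl (SD, n = 3 each), at a log2 change of -0.63 (limma adjusted p = 0.241). Among genes of activation, anchoring and clearance 0 of 10 were called after scaling and 5 were lower as deposited. Cd44, the hyaluronan receptor that can dock MMP9, stood at a log2 change of -1.17 (limma adjusted p = 0.119), and Lrp1, the endocytic receptor that clears MMPs and ADAMTS5, at 0.66 (adjusted p = 0.209) but at -0.00026 as deposited.

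In the membrane-bound ADAM proteases 0 of 9 were called, and 4 were lower as deposited. Adam9 averaged 35.2 ± 4.92 scaled TPM in DPP3_KO and 60.1 ± 1.38 in Ctrl (SD, n = 3 each), without overlap, at -0.76 on the log2 scale (limma adjusted p = 0.0586), while Adam28 averaged 8.13 ± 3.44 and 3.30 ± 0.851 scaled TPM, at 1.04 (adjusted p = 0.112). Of the ADAMTS-like proteins, which resemble ADAMTS proteases but lack the protease domain, 0 of 6 were called, with Adamtsl3 at -1.19 and Adamtsl1 at -0.60 (limma adjusted p = 0.146 and 0.184). Among 10 known substrates of ADAMTS proteases only 4 were tested and 0 were called. Vcan, the versican gene, had 9.22 ± 2.49 scaled TPM in DPP3_KO and 11.4 ± 4.64 in Ctrl, and Fbn1, the fibrillin-1 gene, 7.57 ± 2.07 and 14.3 ± 5.21 (log2 change -0.80, limma adjusted p = 0.196). Acan, the aggrecan gene, averaged 0.00333 TPM, and the 6 cartilage genes were all under the limit of testing.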

How the data were processed

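RNA sequencing of lung tissue gave 6 libraries, prepared with a TruSeq kit from total RNA, per the labels' protocols. The authors deposited TPM for 56980 genes as 1 matrix. The submitters' processing notes name HISAT2, StringTie, RSEM and the build GRCm39, without role or version. No source used here gives the annotation release, the strand setting or how reads of the human cells were handled. TPM keeps no depth, so no counting interval or floor is given. Titles gave the groups; that of Ctrl replicate 3 begins with 232 where the others have 231, and was taken as a typing error. All value columns matched a sample.

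TPM was divided by median-of-ratios factors from 18977 genes above 0 in all libraries, and log2(scaled TPM + 1) of 15650 genes (mean deposited TPM 1 or more) was modelled by limma 3.58.1 under R 4.3.3 (eBayes with trend, two-sided, Benjamini-Hochberg, threshold 0.05), for DPP3_KO minus Ctrl. An exact permutation test of 3 against 3 cannot go below p = 0.1 and was not used. The fit was tested on simulated data.

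The members and lists were chosen with earlier results of these data known. Values in every library are given for members called after scaling or as deposited, members without overlap, and the 2 most abundant of each family, with others of the same library patterns chosen after their values were seen. In each pathway list the 2 genes with the smallest p are named, except 1 that is not reported here, and the marker genes Siglecf, Fabp1, Clic5, Pdpn, Calcrl and Cdh5 and the gene Acan were chosen after their values were seen. Alternatives were other scalings, a length correction (lowess span 0.3), pseudocounts, filters, variance models, a replicate block and leaving out each library. Promoters are from RefSeq (GRCm38.p6), and overlaps of genes from a GENCODE release on GRCm38, which is not the build of the matrix.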

Additional observations from a re-analysis of the deposited data

How the results depend on the processing

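With scaled TPM, 297 genes were called higher and 138 lower, with 1 member higher (Adamts5) and 0 lower. As deposited, 5321 genes were lower, and 0 members were higher and 7 lower. Scaling without Scgb1a1, mitochondrial and haemoglobin genes gave 93 higher and 0 members higher (Adamts5 0.76, limma adjusted p = 0.118). Removing the length trend gave 185 higher and 90 lower. A pseudocount of 5 left 0 members higher (Adamts5 adjusted p = 0.0520), as did no filter (84 genes higher, 33 lower, 29859 tested) and a filter at 5 TPM, under which Adamts5 is not tested. Sample quality weights gave 723 higher and 629 lower, with 3 members lower. A threshold of 0.1 gave 724 and 559, with 2 members lower. Leaving out 1 library at a time gave 18 to 179 genes higher and 6 to 174 lower, fewest without DPP3_KO replicate 2 and most without DPP3_KO replicate 1. It left 0 members higher and 0 to 2 lower, the 2 being Timp3 and Mmp28 without DPP3_KO replicate 1. The cause of these differences was not tested.

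Deviations of libraries with the same replicate number correlated at 0.27, -0.21 and 0.14, and not every library correlated best with its own number. With so few libraries per group, these correlations do not show a pairing by number and cannot exclude it. A replicate block gave 25 genes higher and 8 lower, and 0 members.

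Directions turned for members that were not called. As deposited, log2 changes were -0.052 for Mmp14, -0.46 for Mmp8, -0.44 for Mmp9, -0.10 for Mmp25, -0.44 for Mmp23, -0.55 for Mmp2, -0.20 for Adamts7, -0.45 for Adamts15, -0.013 for Mmp3 and -0.28 for Adamts14. Scaling without Scgb1a1 and those other genes gave -0.12 for Mmp8, -0.10 for Mmp9, -0.16 for Mmp23, -0.20 for Mmp2, -0.10 for Adamts15 and -0.12 for Adamts14. The median log2 change of all tested genes was -0.60 as deposited and -0.29 under this second scaling. Every turned member listed for these settings lay above the median of its setting, so these turns follow a shift of the typical gene. Removing the length trend gave 0.0040 for Timp2, -0.13 for Mmp23 and 0.088 for Adamts8, and quality weights gave -0.32 for Mmp23, -0.26 for Mmp2 and -0.10 for Adamts14. Leaving out 1 library gave -0.088 to 0.22 for Adamts14, -0.80 to 0.023 for Adamts2, -0.64 to 0.40 for Adamts8, -0.42 to 0.50 for Mmp2, -0.34 to 0.35 for Mmp23, -0.014 to 1.12 for Mmp25, -0.038 to 0.90 for Mmp3, -0.88 to 1.63 for Mmp8, -0.52 to 1.32 for Mmp9 and -0.39 to 0.080 for Timp2. TPM keeps no depth, so what depth limits is unknown.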
